A study of Caenorhabditis elegans with 12 samples.

Results

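The transcriptome of Caenorhabditis elegans labelled crh-1(n3315) was compared with that of wild type (WT) in whole worms at day 1 of adulthood. All genes that passed a filter on low counts were taken, which left 14511 of the 46748 genes in the count table, where 23365 genes had at least 1 count. The comparison used 8 of the 12 libraries of the study, 4 labelled crh-1(n3315) (strain MT9973) and 4 of WT (strain N2). The other 4 libraries were of crh-1(syb385) (strain VDL786), which lacks the circular RNAs made from crh-1 through a deletion in an intron, and they entered the same fit. The study describes crh-1(n3315) as a mutant of the CREB mRNA. On western blots of day 1 adults the study could not detect phosphorylated CRH-1 protein in this mutant. Worms of all genotypes were raised at 20°C on E. coli OP50 after synchronization with hypochlorite. The study's methods name FUdR, which blocks progeny, unless stated otherwise, and the sample labels do not name it, so whether these worms received it is not known here. The study states 4 independent biological replicates per genotype. Each mutant is represented by 1 strain, and variants that a strain carries elsewhere in its genome cannot be told apart from the crh-1 allele in this design.

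CREB is a transcription factor of the bZIP family that binds cAMP response elements and becomes active when kinases phosphorylate it. Calcium and cAMP signals reach it through calmodulin-dependent kinases, protein kinase A and RSK kinases, and it recruits the acetyltransferase CBP and the CRTC coactivators. In C. elegans crh-1 encodes the CREB ortholog, which is known for roles in memory, in the response to temperature and in lifespan through AMPK and CRTC-1.

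Total counts per library were 20296003 to 25369267 in crh-1(n3315) (median 21518814) and 16348586 to 22174508 in WT (median 19929673). Levels are given as CPM, the counts scaled to a common library size after TMM normalization. The genotypes were tested by the quasi-likelihood method of edgeR, and p-values were adjusted by Benjamini-Hochberg over all tested genes. Called genes had an adjusted p below 0.05 and changed by a factor of 2 or more. Genes named for their fold or CPM were taken only where the libraries of the genotypes did not overlap. A lack of overlap in these genes therefore adds no support. Standard errors (SE) are those of the log2 fold change. The first principal component (51.2% of the variance) separated the genotypes. On the second component (17.8%) WT replicate 3 lay at -70.8 and WT replicate 1 at 43.5. WT replicate 3 also deviated from the mean of its group with gene length, by a median of 0.37 log2 CPM in the shortest of 5 equal groups of genes and by -0.45 in the longest. The median log2 fold change of crh-1(n3315) over WT was -0.31 in the shortest group and 0.27 in the longest, against -0.04 over all tested genes. Counts per gene list are therefore given without WT replicate 3, or with each library's length trend removed, wherever these move the count by more than 1.5 times. The length alternative was chosen after the data were seen, and the part of gene length in each result was not tested beyond the values given.

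**Figure D1:**
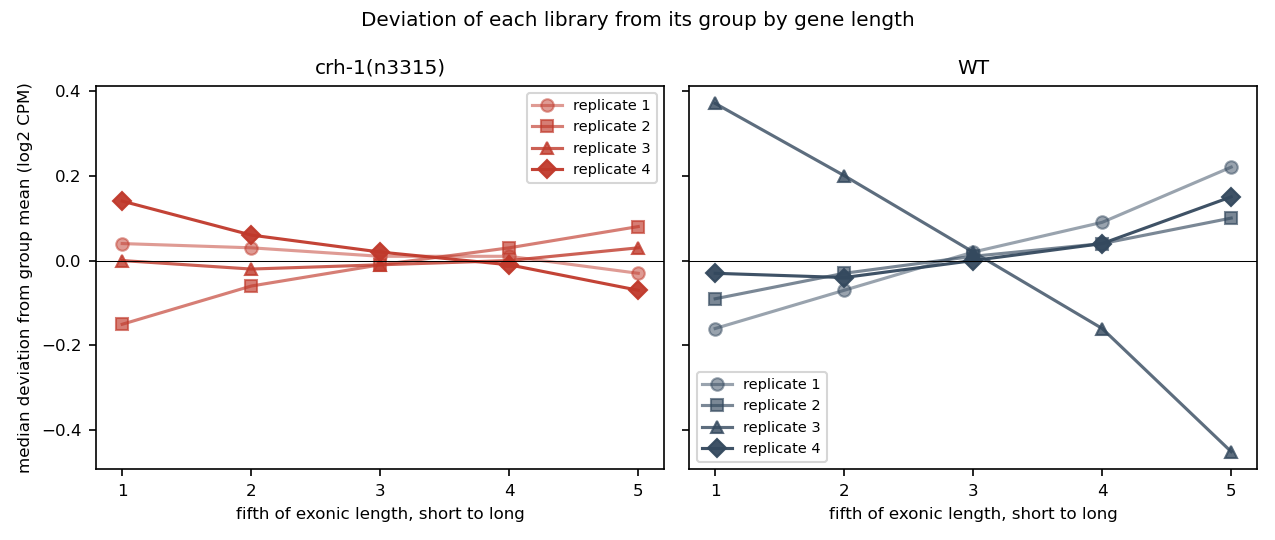
The x axis gives the 5 equal groups of tested genes by exonic length, and the y axis the median deviation in log2 CPM of each library from the mean of its 4-library group, with crh-1(n3315) on the left and WT on the right. WT replicate 3 ran from 0.37 in the shortest genes to -0.45 in the longest, and the crh-1(n3315) libraries stayed between -0.15 and 0.14.

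The count of crh-1 itself (WBGene00000793; chromosome III, 11657738 to 11693837, WBcel235) did not fall in the libraries labelled crh-1(n3315). Its level was 47.6, 48.6, 51.3 and 52.8 CPM in crh-1(n3315) and 37.99, 47.4, 40.6 and 43.6 CPM in WT. Every crh-1(n3315) library lay above every WT library, at a log2 fold change of 0.24 (SE 0.10, edgeR adjusted p = 0.0565). A count summed over the gene does not resolve a deletion within it, so the counts neither check the genotype nor show what protein is made, and the libraries are named by their label. The libraries' markers fitted whole worms: all 11 intestine markers, all 10 hypodermis markers, all 18 body wall muscle markers, 14 of 15 pharynx markers, all 19 pan-neuronal markers and all 3 coelomocyte markers passed the filter on low counts. In whole worms, fewer cells of a type and less RNA per cell cannot be told apart.

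Around CREB, few genes were called. Of 27 tested genes that encode CREB, its coactivators, its kinases and the enzymes of cAMP and calcium signalling, 2 were called, both higher, where 4.12% of all tested genes were called higher and 11.2% lower. The median of these genes was -0.02 on the log2 scale. rskn-1, which encodes a kinase of the RSK family, was the clearest. It had 287, 284, 294 and 231 CPM in crh-1(n3315) and 111, 151, 95.7 and 136 CPM in WT. The groups did not overlap, with a log2 fold change of 1.15 (SE 0.13, edgeR adjusted p = 9.74e-06), and the log2 fold change was 0.92, under 2-fold, with the length trend removed. The phosphodiesterase gene pde-1 was also called, at 4.30, 3.63, 2.93 and 4.04 CPM in crh-1(n3315) and 3.14, 1.35, 0.981 and 1.91 CPM in WT, with libraries that overlapped and a log2 fold change of 1.01 (SE 0.33, edgeR adjusted p = 0.0223). Its call was lost without crh-1(n3315) replicate 1 or 4 and without WT replicate 2 or 3, where the log2 fold change lay between 0.81 and 0.97. Others passed the test at less than 2-fold, where 20.3% of all tested genes passed as higher and 21.7% as lower at any fold. The coactivator gene crtc-1 had a log2 fold change of -0.68 (SE 0.18, edgeR adjusted p = 0.00774) and the calcineurin subunit gene cnb-1 a log2 fold change of -0.91 (SE 0.12, edgeR adjusted p = 2.84e-05). The phosphodiesterase gene pde-2 had a log2 fold change of 0.78 (SE 0.14, edgeR adjusted p = 0.000419), and the bZIP gene crh-2 had a log2 fold change of 0.43 (SE 0.13, edgeR adjusted p = 0.0165). For cbp-1, the CBP ortholog, the log2 fold change of 0.38 (SE 0.18, edgeR adjusted p = 0.113) did not pass. No member of the list was called lower by edgeR or DESeq2, and 4 were lower at an unadjusted p under 0.05. Without WT replicate 3 edgeR called 1 lower.

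Over all tested genes 598 rose (4.12%) and 1624 fell (11.2%), so 73.1% of the 2222 called genes (15.3% of those tested) were lower in crh-1(n3315). The libraries of the 2 genotypes did not overlap for 1928 of the called genes, and for 38.7% of all tested genes. At 4-fold or more 136 genes rose and 489 fell. The genes that rose took 5.22% to 5.63% of the reads in crh-1(n3315) libraries and 2.09% to 2.82% in WT libraries. The genes that fell took 1.34% to 1.58% in crh-1(n3315) and 4.33% to 5.77% in WT. By the higher mean of the 2 genotypes, 20.6% of genes at 1 to 10 CPM fell, with 8.90% of those at 10 to 100 CPM and 3.63% of those below 1 CPM. By chromosome the share that fell was lowest on chromosome I (7.28%) and highest among the nuclear chromosomes on X (14.8%) and V (14.1%). Within 1 Mb of crh-1, 11 of 270 tested genes rose and 16 fell (5.93%).

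**Figure D2:**
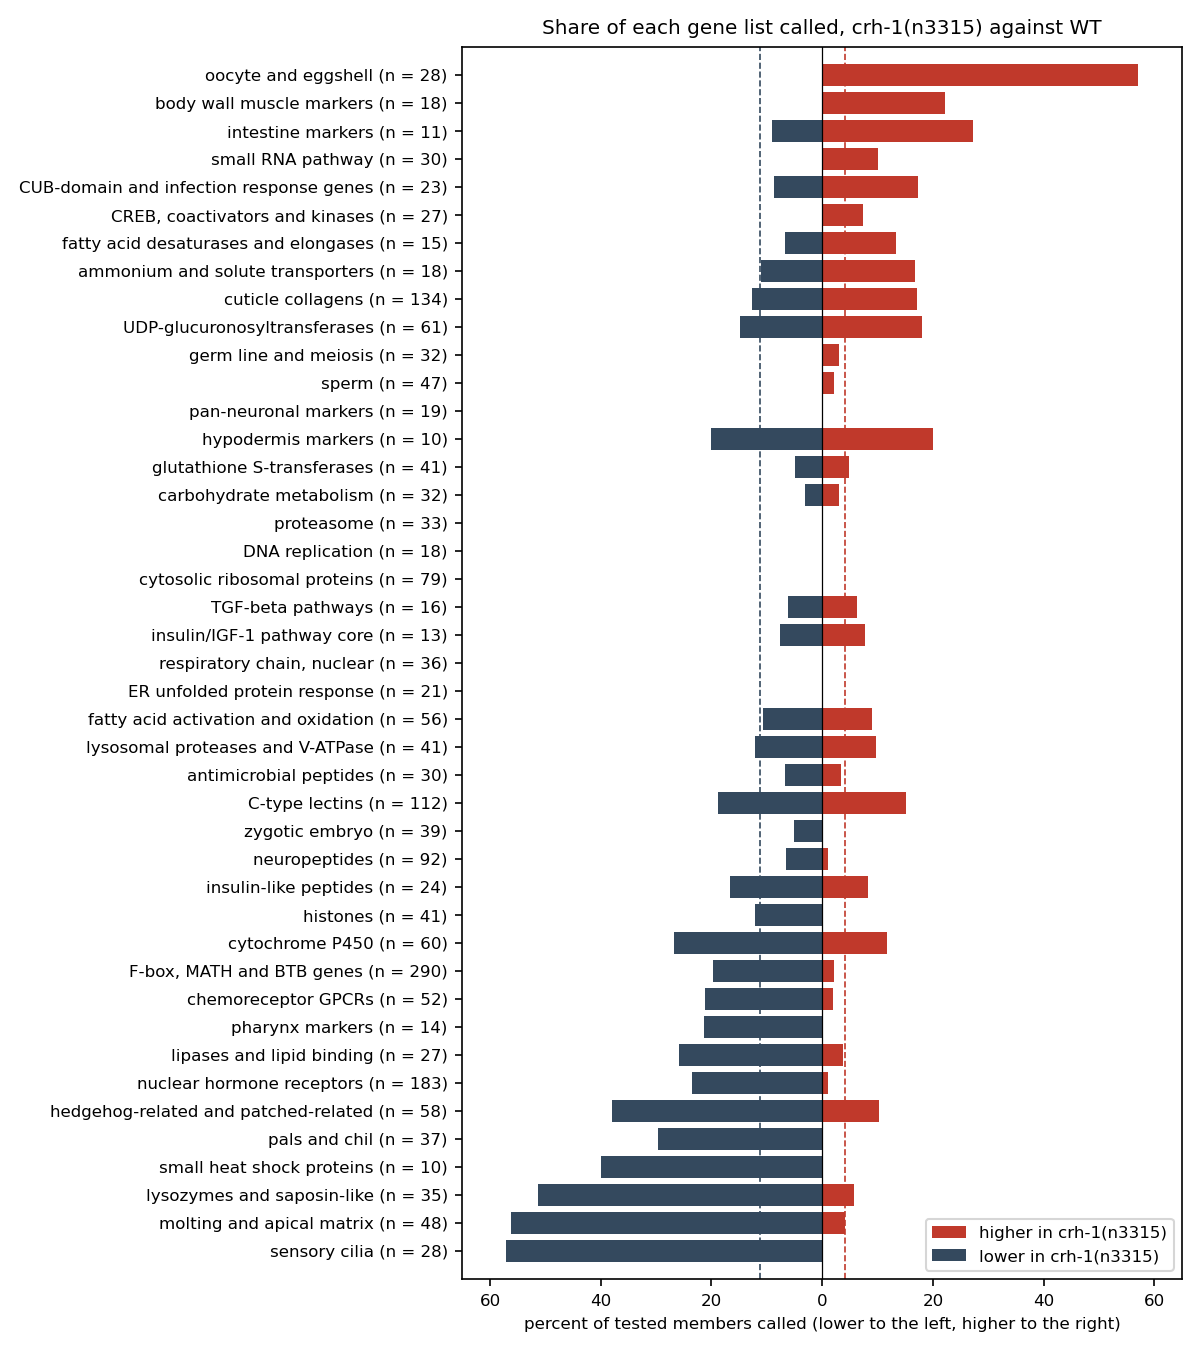
Bars give the percent of tested members called higher (right) or lower (left) in crh-1(n3315) than in WT for each list of at least 10 tested genes, and dashed lines give the share over all tested genes, 4.12% higher and 11.2% lower. The sensory cilia, molting and lysozyme lists reached furthest to the left, at 57.1%, 56.2% and 51.4%, and the oocyte and eggshell list furthest to the right, at 57.1%.

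Genes of the apical extracellular matrix, the coat that epithelia secrete on their outer face, fell in large number. Genes of molting and of the matrix that precedes the cuticle, with the cuticlins, had 48 tested members, of which 27 fell (56.2%) and 2 rose. The median log2 fold change was -1.33, and the summed level was 918 to 1232 CPM in crh-1(n3315) and 1137 to 2662 CPM in WT. WT replicate 3 was the WT library within the range of crh-1(n3315). The cuticlin gene cut-3 had 1.31, 4.29, 6.89 and 3.58 CPM in crh-1(n3315) and 63.1, 34.3, 7.14 and 21.4 CPM in WT (log2 fold change of -2.97, SE 0.60, edgeR adjusted p = 0.00163). A second cuticlin, cut-5, had 0.0842, 0.868, 1.44 and 0.715 CPM in crh-1(n3315) and 9.80, 8.39, 2.45 and 3.57 CPM in WT (log2 fold change of -2.96, SE 0.59, edgeR adjusted p = 0.00106). In both genes the groups did not overlap, as their selection required. Without WT replicate 1, the highest WT library, the log2 fold change of cut-3 was -2.37. Among members chosen after their values were seen, the molting gene mlt-8 had a log2 fold change of -2.01 (SE 0.21, edgeR adjusted p = 4.33e-06). The zona pellucida domain genes noah-1 and noah-2 had log2 fold changes of -1.44 and -1.66. Of the 22 tested cutl genes, which encode cuticlin-like proteins, 13 fell and none rose (59.1%), and 1 rose without WT replicate 1.

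Hedgehog-related and patched-related genes, which in nematodes act largely in the epidermis and its cuticle, moved in both directions. Of 58 tested members 22 fell (37.9%) and 6 rose (10.3%), with a median log2 fold change of -0.39. The warthog gene wrt-2 had 1.81, 2.66, 2.84 and 1.58 CPM in crh-1(n3315) and 27.2, 18.4, 5.01 and 16.4 CPM in WT, at a log2 fold change of -2.91 (SE 0.39, edgeR adjusted p = 4.69e-05). ptr-3, a patched-related gene, had 1.26, 2.04, 2.187 and 1.69 CPM in crh-1(n3315) and 16.5, 11.6, 4.90 and 10.2 CPM in WT, at a log2 fold change of -2.59 (SE 0.36, edgeR adjusted p = 5.51e-05). Neither gene had overlapping libraries, as their selection required. The summed level of the list went the other way from its median, at 1628 to 1800 CPM in crh-1(n3315) and 869 to 1554 CPM in WT, without overlap.

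Cuticle collagens were called in both directions. Of 134 tested collagens 23 rose (17.2%) and 17 fell (12.7%), and the median log2 fold change was 0.56. Over all tested genes 4.12% rose, and the share of collagens that fell was near the 11.2% of all tested genes. The number that rose was 46 without WT replicate 3. col-119 had 3525, 3071, 3360 and 3868 CPM in crh-1(n3315) and 1116, 1732, 1736 and 1463 CPM in WT, a log2 fold change of 1.19 (SE 0.13, edgeR adjusted p = 5.54e-06). That was the largest gain in mean CPM among called genes with a symbol whose libraries did not overlap. col-19, an adult-specific collagen, had a log2 fold change of 1.17 (SE 0.24, edgeR adjusted p = 0.00151), and 0.93 without WT replicate 1. Collagen genes resemble each other, so reads of close copies may have been split. The annular furrow collagen gene dpy-7 went the other way. Its level was 7.41, 9.09, 11.96 and 11.8 CPM in crh-1(n3315) and 67.5, 55.8, 52.4 and 60.3 CPM in WT, with no overlap and a log2 fold change of -2.55 (SE 0.15, edgeR adjusted p = 2.88e-08). Other furrow collagens, chosen after their values were seen, had log2 fold changes of -2.34 for dpy-2, -2.17 for dpy-3 and -1.96 for dpy-10. sqt-3, a collagen of the body cuticle, had a log2 fold change of -1.96 (SE 0.25, edgeR adjusted p = 5.09e-05). The summed level of all collagens was 28350 to 35390 CPM in crh-1(n3315) and 12980 to 24340 CPM in WT, without overlap.

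**Figure D3:**
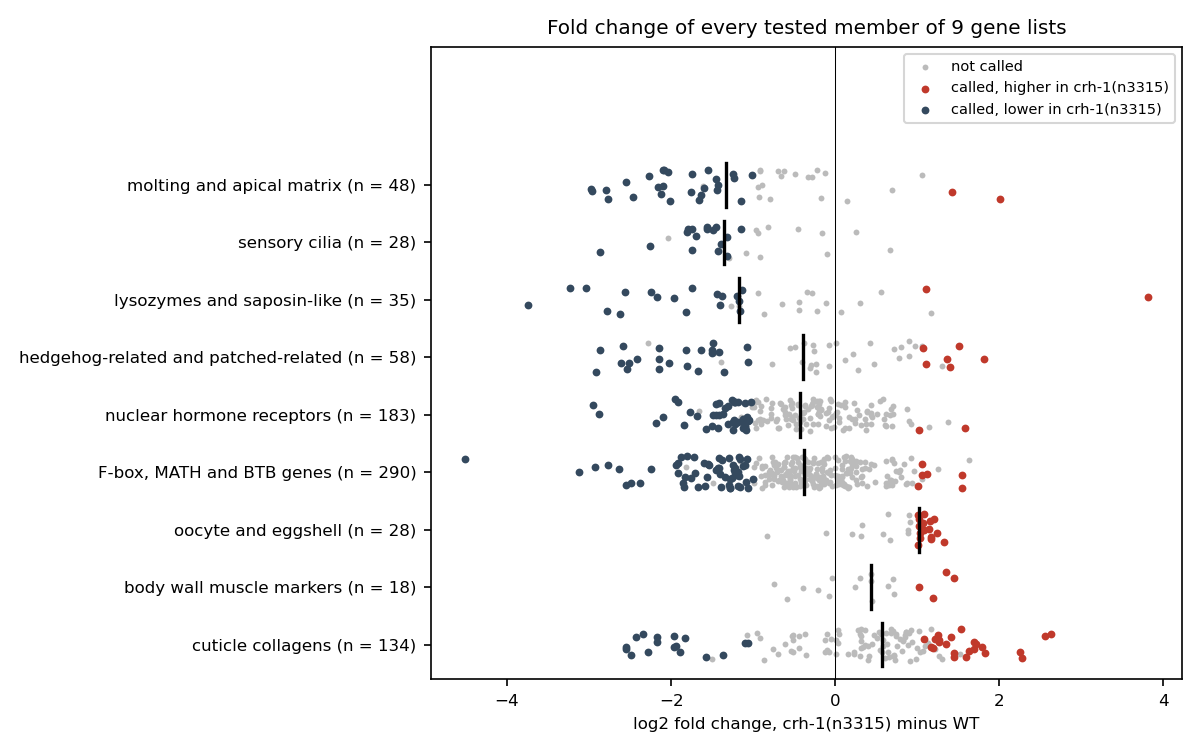
Each point is the log2 fold change of 1 tested gene, crh-1(n3315) minus WT, grouped by list, coloured where called, and black bars give the list medians. The medians ran from -1.35 for sensory cilia and -1.33 for molting to 1.02 for oocyte and eggshell genes, and cuticle collagens lay on both sides of 0.

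Sensory cilia are the antenna-like endings of sensory neurons and are built by intraflagellar transport. Of 28 tested genes for them 16 fell (57.1%) and none rose, where 11.2% of all tested genes fell and 4.12% rose. The median log2 fold change was -1.35. Without WT replicate 1, 10 of the 28 fell. In 12 of the 28 all crh-1(n3315) libraries lay below all WT libraries, as in 18.2% of all tested genes. bbs-2, which encodes a subunit of the BBSome, was chosen after its values were seen. Its level was 0.126, 0.868, 0.372 and 0.562 CPM in crh-1(n3315) and 4.07, 4.76, 2.02 and 3.08 CPM in WT (log2 fold change of -2.86, SE 0.46, edgeR adjusted p = 0.000169). The dendrite anchoring gene dyf-7 had 4.04, 5.87, 6.79 and 6.33 CPM in crh-1(n3315) and 23.2, 14.6, 12.8 and 17.2 CPM in WT, without overlap (log2 fold change of -1.56, SE 0.21, edgeR adjusted p = 4.72e-05). For the intraflagellar transport genes osm-5 and che-13 the log2 fold changes were -1.49 and -1.74, again chosen after their values were seen, and the call of che-13 was lost without crh-1(n3315) replicate 3. Summed over the list, the level was 67.1 to 86.1 CPM in crh-1(n3315) and 68.4 to 166.7 CPM in WT, where WT replicate 3 was the lowest and the only WT library within the range of crh-1(n3315). Of 19 pan-neuronal markers 0 were called by edgeR or DESeq2, with 2 higher and 5 lower at an unadjusted p under 0.05, and their median was -0.04. Chemoreceptor genes, of which 52 of 1315 passed the filter, had 11 that fell and 1 that rose (0 without crh-1(n3315) replicate 2, 2 without WT replicate 3 or 4). Among those that fell, str-176 had 13.6, 13.2, 13.3 and 15.8 CPM in crh-1(n3315) and 33.2, 30.1, 29.4 and 29.1 CPM in WT.

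Of 28 tested oocyte and eggshell genes 16 rose (57.1%) and none fell. In 24 of the 28 all crh-1(n3315) libraries lay above all WT libraries, as in 20.5% of all tested genes, and in 1 they all lay below. The median log2 fold change was 1.02, which sits at the 2-fold threshold, and the count of calls moved with the libraries used. It was 8 without WT replicate 3 and 9 with the length trend removed. chs-1, the chitin synthase of the eggshell, had 625, 671, 639 and 468 CPM in crh-1(n3315) and 248, 304, 152 and 256 CPM in WT (log2 fold change of 1.32, SE 0.17, edgeR adjusted p = 2.54e-05). The eggshell gene egg-3 had a log2 fold change of 1.24 (SE 0.11, edgeR adjusted p = 1.44e-06). oma-1, which encodes an RNA-binding protein of maturing oocytes, was picked with its values known and had a log2 fold change of 1.09 (SE 0.14, edgeR adjusted p = 3.25e-05), and 0.95 without WT replicate 3. The summed level of the list was 17250 to 19060 CPM in crh-1(n3315) and 8786 to 11520 CPM in WT, without overlap.

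Other reproductive groups held fewer calls. Among all tested genes 4.12% rose and 11.2% fell, and in 20.5% all crh-1(n3315) libraries lay above all WT libraries. That held for all 6 vitellogenin genes, which encode yolk proteins made in the intestine. Of the 6, vit-1 and vit-4 were called, and 4 were called without WT replicate 2. The summed level of the 6 was 56150 to 71530 CPM in crh-1(n3315) and 22070 to 42040 CPM in WT. vit-1 had 2746, 2902, 2408 and 2760 CPM in crh-1(n3315) and 89.5, 1586, 889 and 532 CPM in WT (log2 fold change of 1.80, SE 0.57, edgeR adjusted p = 0.0232), and its call was lost without crh-1(n3315) replicate 2 and without WT replicate 3 or 4 (edgeR adjusted p up to 0.0738). Without WT replicate 2 its log2 fold change was 2.43. Some vitellogenins are near-identical copies, so reads of vit-1 and vit-2, and of vit-3, vit-4 and vit-5, may have been split between them. With the length trend removed none of the 6 was called. Of 32 germ line and meiosis genes 1 rose (3.12%), glp-1, which encodes the Notch receptor of the germ line (log2 fold change of 1.01, SE 0.19, edgeR adjusted p = 0.000713). Its log2 fold change was 0.80 without WT replicate 3 and just under 1.00 without crh-1(n3315) replicate 2 or 3 (0.94 and 0.998). In 17 of the 32 all crh-1(n3315) libraries lay above all WT libraries, and in 2 they all lay below. At an unadjusted p under 0.05, 18 of the 32 were higher and 4 lower. The list summed to 3996 to 4399 CPM in crh-1(n3315) and 2376 to 3323 CPM in WT, without overlap. In the sperm list 1 of 47 rose (0 without crh-1(n3315) replicate 1, 2 without WT replicate 4). In the zygotic embryo list 2 of 39 fell (1 without crh-1(n3315) replicate 2 or 3 or WT replicate 2). Both shares, 2.13% and 5.13%, lay below those of all tested genes. Of 18 DNA replication genes 0 were called by edgeR or DESeq2, although 17 of them were higher at an unadjusted p under 0.05.

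Markers of muscle, intestine, hypodermis and pharynx differed in direction. Over all tested genes 4.12% rose and 11.2% fell. Of 18 body wall muscle markers 4 rose and none fell, among them unc-54, the major myosin heavy chain (log2 fold change of 1.19, SE 0.23, edgeR adjusted p = 0.00113), and the giant sarcomere genes unc-22 and unc-89 (log2 fold changes of 1.45 and 1.35). These are long genes. With the length trend removed none of the 18 was called (0.89 for unc-54, 0.92 for unc-22 and 0.81 for unc-89), and without WT replicate 3 unc-54 was at 0.96 and 2 of the 18 were called. Of 11 intestine markers 3 rose and 1 fell. The acid phosphatase gene pho-1 had 69.4, 57.3, 67.8 and 79.7 CPM in crh-1(n3315) and 5.20, 20.5, 24.1 and 11.9 CPM in WT, and pept-1, a dipeptide transporter, had a log2 fold change of 1.73 (SE 0.15, edgeR adjusted p = 9.59e-07). The aspartic protease gene asp-1 had 799, 864, 643 and 721 CPM in crh-1(n3315) and 1733, 2506, 2023 and 1934 CPM in WT, without overlap (log2 fold change of -1.44, SE 0.13, edgeR adjusted p = 1.44e-06). Of 10 hypodermis markers 2 fell, the collagen genes dpy-7 and sqt-3, and 2 rose, the collagen genes col-19 and rol-6. The rises numbered 1 without crh-1(n3315) replicate 1 or 2 or WT replicate 2 or 4, and 0 without WT replicate 1. Of 14 pharynx markers 3 fell, the NK-2 homeobox gene ceh-22 (log2 fold change of -1.92, SE 0.32, edgeR adjusted p = 0.000274) and the gland genes phat-2 and phat-5 (log2 fold changes of -2.32 and -2.63), with libraries of phat-5 that overlapped. No pharynx marker was called higher by edgeR or DESeq2, with 3 higher at an unadjusted p under 0.05, and 2 were called higher without WT replicate 1.

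**Figure D4:**
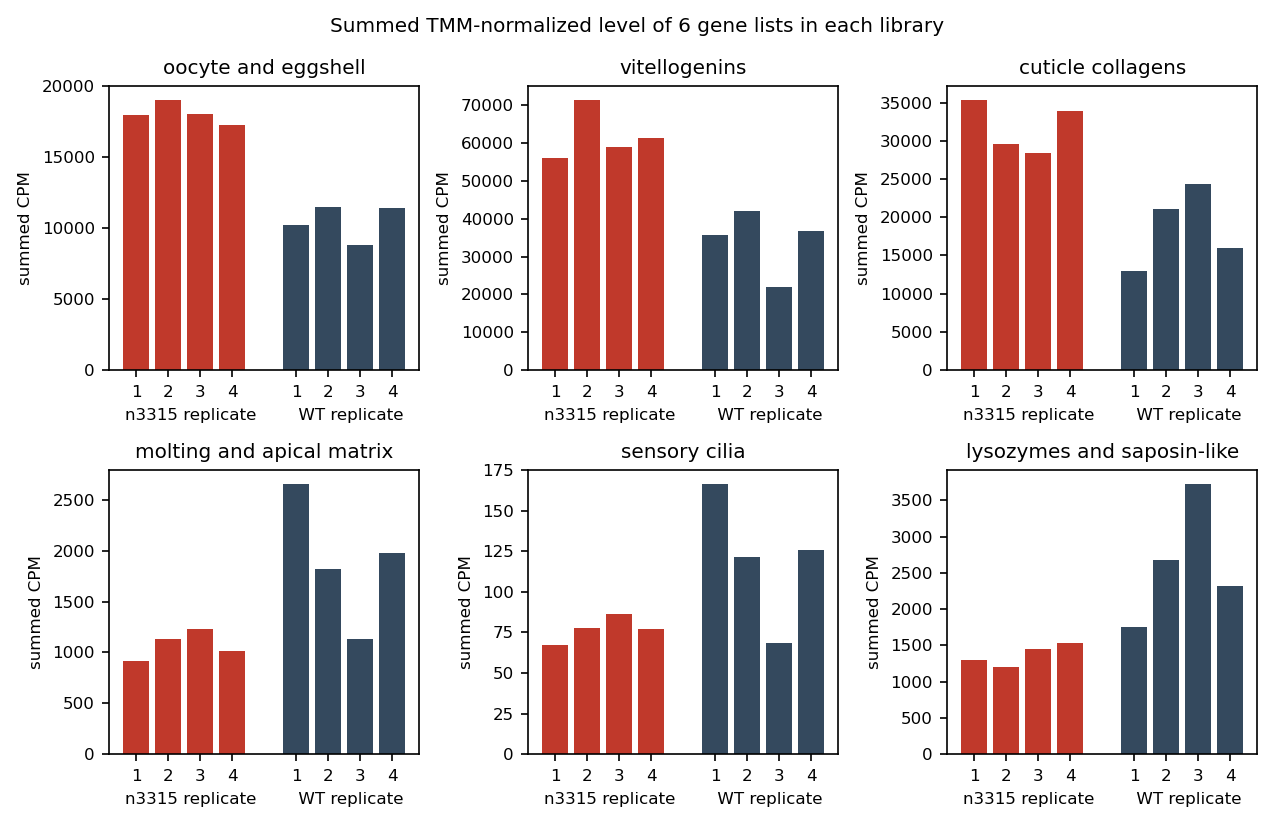
Bars give the summed CPM of 6 gene lists in each library, with the 4 crh-1(n3315) replicates on the left and the 4 WT replicates on the right of each panel. Oocyte and eggshell genes, vitellogenins and collagens were higher in every crh-1(n3315) library than in any WT library, and for molting and cilia genes WT replicate 3 lay within the range of crh-1(n3315).

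Among genes of innate defence, most or all calls were lower in the lysozyme and saposin-like list and in the pals and chil list, and the C-type lectins had calls in both directions. Of 35 lysozyme and saposin-like genes, whose products lyse or permeabilize bacteria, 18 fell (51.4%) and 2 rose (1 without WT replicate 1), at a median log2 fold change of -1.17. The summed level was 1207 to 1536 CPM in crh-1(n3315) and 1747 to 3731 CPM in WT, without overlap. lys-7, a lysozyme gene that DAF-16 is known to activate, had 27.04, 32.5, 33.2 and 32.3 CPM in crh-1(n3315) and 206, 267, 269.8 and 283 CPM in WT (log2 fold change of -3.04, SE 0.12, edgeR adjusted p = 2.33e-10). The saposin-like gene spp-2 had 7.16, 7.25, 11.4 and 7.92 CPM in crh-1(n3315) and 82.0, 82.5, 168 and 122.1 CPM in WT (log2 fold change of -3.75, SE 0.29, edgeR adjusted p = 5.91e-07). Both were low in all 4 crh-1(n3315) libraries. The C-type lectins, a large family of secreted carbohydrate-binding proteins, had 17 rises and 21 falls among its tested members (15.2% and 18.8%). Over all tested genes 4.12% rose and 11.2% fell. clec-190 had a log2 fold change of 3.75 (SE 0.38, edgeR adjusted p = 6.73e-06), and clec-84 had a log2 fold change of 3.30 (SE 0.30, edgeR adjusted p = 1.44e-06). Among the 37 pals and chil genes, which include genes induced by intracellular pathogens, 11 fell (29.7%) and none rose, but 7 fell without crh-1(n3315) replicate 2 or without WT replicate 1. chil-18, with no count in any crh-1(n3315) library, was at least 20.9-fold lower there, taking 3 counts per library as the floor. Of 8 tested scl genes, which encode secreted proteins of the SCP/TAPS family, 1 fell (2 without WT replicate 3) and 2 rose, with 1 rise without crh-1(n3315) replicate 1, 2 or 4 or WT replicate 1, 2 or 3. scl-24, with no count in any WT library, was at least 8.75-fold higher in crh-1(n3315), with the same floor, and scl-8 had a log2 fold change of 1.27 (SE 0.46, edgeR adjusted p = 0.0356). The gene that fell, scl-2, had 10.8, 7.30, 9.54 and 5.82 CPM in crh-1(n3315) and 135, 75.1, 106 and 162 CPM in WT (log2 fold change of -3.83, SE 0.28, edgeR adjusted p = 3.95e-07).

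Of 183 nuclear hormone receptor genes, which encode ligand-regulated transcription factors, 43 fell (23.5%) and 2 rose, at a median log2 fold change of -0.43. For all tested genes the share that fell was 11.2%, and for those with a higher mean of 1 to 10 CPM it was 20.6%. nhr-99 had a log2 fold change of -2.18 (SE 0.36, edgeR adjusted p = 0.000214) and nhr-127 a log2 fold change of -2.95 (SE 0.35, edgeR adjusted p = 1.58e-05). Of 290 F-box, MATH and BTB genes, many of which encode adaptors of ubiquitin ligases, 57 fell (19.7%) and 6 rose (3 without crh-1(n3315) replicate 1 or WT replicate 1). math-45 had a log2 fold change of -2.77 (SE 0.23, edgeR adjusted p = 5.49e-07). The summed levels of both lists overlapped between the genotypes, at 1683 to 1791 CPM in crh-1(n3315) and 1780 to 2141 CPM in WT for the receptors and 2602 to 2734 CPM in crh-1(n3315) and 2643 to 2991 CPM in WT for the F-box list.

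Some stress genes were among the deepest falls, and cytosolic and mitochondrial chaperone genes were mostly higher. Of 2 tested metallothionein genes only mtl-1 was called. The metallothionein gene mtl-1, which encodes a metal-binding protein, had 0.337, 0, 0.372 and 0.102 CPM in crh-1(n3315) and 39.1, 22.01, 89.2 and 102 CPM in WT. The gene was close to silent in every crh-1(n3315) library, at a log2 fold change of -8.18 (SE 0.67, edgeR adjusted p = 2.34e-06). Of 10 small heat shock protein genes 4 fell and none rose, and their summed level overlapped between the genotypes (1194 to 1297 CPM in crh-1(n3315), 1134 to 1368 CPM in WT). hsp-12.6 had a log2 fold change of -2.15 (SE 0.28, edgeR adjusted p = 3.57e-05) and hsp-12.1 a log2 fold change of -2.11 (SE 0.27, edgeR adjusted p = 2.28e-05). Of 7 cytosolic and mitochondrial chaperone genes 1 was called lower and none higher, by edgeR or DESeq2. In 6 of the 7 all crh-1(n3315) libraries lay above all WT libraries, as in 20.5% of all tested genes. The chaperone list summed to 8227 to 8716 CPM in crh-1(n3315) and 4695 to 6301 CPM in WT. The superoxide dismutase genes sod-3 and sod-4 had log2 fold changes of -1.68 and -1.55. sod-3 is a target of DAF-16 and encodes the mitochondrial manganese enzyme. Over all tested genes 11.2% fell and 4.12% rose. Cytochrome P450 genes had 16 falls and 7 rises among 60 (26.7% and 11.7%). UDP-glucuronosyltransferases had 9 falls and 11 rises among 61 (14.8% and 18%). Glutathione S-transferases had 2 of each among 41 (4.88%), with 4 rises and 1 fall without WT replicate 3. cyp-34A9 had 8.17, 8.27, 6.98 and 5.26 CPM in crh-1(n3315) and 69.1, 41.4, 34.8 and 68.9 CPM in WT (log2 fold change of -2.90, SE 0.28, edgeR adjusted p = 3.54e-06). ugt-18 had a log2 fold change of -3.65 (SE 0.35, edgeR adjusted p = 2.86e-06).

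Genes of lipid metabolism changed in both directions. Of 27 lipase and lipid binding genes 7 fell (25.9%) and 1 rose (2 without crh-1(n3315) replicate 3 or WT replicate 2). The lysosomal lipase gene lipl-2 had 0.337, 0.562, 0.0931 and 0.409 CPM in crh-1(n3315) and 18.7, 3.87, 7.19 and 12.55 CPM in WT (log2 fold change of -4.91, SE 0.61, edgeR adjusted p = 2.4e-05). lipl-3, of the same class, had 1.39, 2.71, 2.001 and 2.197 CPM in crh-1(n3315) and 62.4, 14.6, 9.31 and 33.7 CPM in WT (log2 fold change of -3.86, SE 0.54, edgeR adjusted p = 0.00011), and a log2 fold change of -3.21 without WT replicate 1. Fatty acid activation and oxidation genes had 5 rises (8.93%) and 6 falls (10.7%) among 56, where 4.12% of all tested genes rose and 11.2% fell. The share that fell was near that of all tested genes, and the list median was -0.04. With the length trend removed 3 rose. acox-1.4, a peroxisomal acyl-CoA oxidase gene, had 32.98, 27.8, 23.6 and 26.7 CPM in crh-1(n3315) and 2.45, 4.06, 3.16 and 3.82 CPM in WT, without overlap (log2 fold change of 3.04, SE 0.17, edgeR adjusted p = 1.99e-08). acs-1, an acyl-CoA synthetase gene needed for branched-chain fatty acids, had a log2 fold change of 1.84 (SE 0.13, edgeR adjusted p = 1.17e-07). acs-2, a mitochondrial acyl-CoA synthetase gene induced by fasting and chosen after its values were seen, had a log2 fold change of -2.28 (SE 0.56, edgeR adjusted p = 0.0067), and -1.53 without WT replicate 1. The desaturase gene fat-7 had 278, 255, 294 and 323 CPM in crh-1(n3315) and 77.0, 133, 166 and 89.01 CPM in WT (log2 fold change of 1.31, SE 0.20, edgeR adjusted p = 0.000115), and elo-2, a fatty acid elongase gene, had a log2 fold change of 1.70 (SE 0.19, edgeR adjusted p = 8.46e-06). Among 32 carbohydrate genes 1 rose and 1 fell. The gene that rose was the trehalase gene tre-2 (log2 fold change of 1.32, SE 0.10, edgeR adjusted p = 3.5e-07). The trehalose synthesis gene tps-1 fell, at 35.9, 38.05, 31.1 and 34.4 CPM in crh-1(n3315) and 116, 65.6, 32.9 and 92.0 CPM in WT (log2 fold change of -1.14, SE 0.27, edgeR adjusted p = 0.00385). Its libraries overlapped, and no member fell without WT replicate 1, against 2 without WT replicate 3 or with the length trend removed.

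None of 33 proteasome genes, 79 cytosolic ribosomal protein genes, 36 nuclear respiratory chain genes or 21 genes of the endoplasmic reticulum unfolded protein response was called by edgeR or DESeq2 in the full set of libraries. Leaving out WT replicate 2 added 1 unfolded protein response gene, higher, and leaving out crh-1(n3315) replicate 4 added 1 ribosomal protein gene, lower. Their median log2 fold changes were 0.24, -0.15, 0.06 and 0.22. At an unadjusted p under 0.05, 16 proteasome genes were higher and 1 lower, 29 ribosomal protein genes were lower and none higher, 10 respiratory chain genes were higher and 3 lower, and 11 unfolded protein response genes were higher and 1 lower. Of 41 lysosomal protease and V-ATPase genes 4 rose (9.76%) and 5 fell (12.2%), where 4.12% of all tested genes rose and 11.2% fell. The rises numbered 2 without WT replicate 1 or with the length trend removed. The share that fell was near that of all tested genes, and abundant proteases were among the falls. asp-6 had 703, 926, 905 and 891 CPM in crh-1(n3315) and 2272, 2307, 1872 and 2203 CPM in WT (log2 fold change of -1.34, SE 0.11, edgeR adjusted p = 5.3e-07), and the cathepsin B-like gene cpr-1 had a log2 fold change of -1.19 (SE 0.13, edgeR adjusted p = 5.54e-06). Of 41 histone genes 5 fell (12.2%), near the 11.2% of all tested genes. The count was 2 without crh-1(n3315) replicate 1 or 2 or WT replicate 2, 3 without crh-1(n3315) replicate 3 and 8 without WT replicate 4. With the length trend removed it was 3. The linker histone gene hil-1 had 4.13, 4.19, 4.33 and 3.98 CPM in crh-1(n3315) and 57.0, 23.4, 21.2 and 35.7 CPM in WT (log2 fold change of -3.04, SE 0.28, edgeR adjusted p = 1.52e-06). Libraries were selected by poly(A), and most core histone mRNAs lack a poly(A) tail, so the list reflects few of them.

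On the mitochondrial genome 6 of 14 tested genes fell and none rose (42.9%), at a median log2 fold change of -1.01. With the length trend removed 2 fell. COX3 had 1208, 1168, 1071 and 1340 CPM in crh-1(n3315) and 2048, 2669, 3749 and 1790 CPM in WT (log2 fold change of -1.099, SE 0.18, edgeR adjusted p = 0.000251). This was the largest loss of mean CPM among called genes with a symbol whose libraries did not overlap. The log2 fold change of COX3 was -0.86, under 2-fold, without WT replicate 3. Nuclear genes of the respiratory chain summed to 9893 to 11190 CPM in crh-1(n3315) and 8897 to 9412 CPM in WT.

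Of 24 insulin-like peptide genes 2 rose (8.33%) and 4 fell (16.7%), where 4.12% of all tested genes rose and 11.2% fell. daf-28, an insulin agonist chosen after its values were seen, had 4.72, 3.83, 3.77 and 6.08 CPM in crh-1(n3315) and 1.47, 0.746, 0.545 and 0.623 CPM in WT (log2 fold change of 2.44, SE 0.36, edgeR adjusted p = 0.000106). ins-6, of the same kind and chosen in the same way, had a log2 fold change of 2.12 (SE 0.63, edgeR adjusted p = 0.0129), and 2.93 without WT replicate 4. ins-2 had a log2 fold change of -1.38 (SE 0.22, edgeR adjusted p = 0.000196). In the TGF-beta pathways the dauer ligand gene daf-7 had 6.36, 5.11, 4.75 and 6.181 CPM in crh-1(n3315) and 0.637, 2.05, 1.25 and 1.79 CPM in WT (log2 fold change of 1.96, SE 0.35, edgeR adjusted p = 0.000448), and the Smad gene sma-2 had a log2 fold change of -1.05 (SE 0.18, edgeR adjusted p = 0.000382), which was -0.94 without crh-1(n3315) replicate 2 and -0.97 without crh-1(n3315) replicate 3. Of 92 neuropeptide genes 6 fell (6.52%) and 1 rose (1.09%), both shares below those of all tested genes. Without WT replicate 3 there were 4 rises, and with the length trend removed 5 rises and 3 falls. The neuropeptide-like gene nlp-39 had 0.169, 0.460, 0.233 and 0.102 CPM in crh-1(n3315) and 5.83, 4.90, 5.07 and 6.57 CPM in WT (log2 fold change of -4.52, SE 0.56, edgeR adjusted p = 1.9e-05). In the small RNA pathway 3 of 30 genes rose (10%), among them rde-11 (log2 fold change of 1.29, SE 0.14, edgeR adjusted p = 7.22e-06). In that list 1 was called without WT replicate 3, without crh-1(n3315) replicate 2 or with the length trend removed.

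Other large changes in fold or in level stood apart from these groups. F26A1.8 (WBGene00017806; chromosome III, 4820798 to 4822226, WBcel235) had 53.9, 39.4, 47.3 and 45.8 CPM in crh-1(n3315) and 0.245, 0.560, 0.0545 and 0.499 CPM in WT, and it was nearly silent in every WT library (log2 fold change of 7.02, SE 0.43, edgeR adjusted p = 5.89e-08). warf-1 (WBGene00000190; chromosome IV, 7634832 to 7635707, WBcel235) had 20.6, 19.1, 23.9 and 31.2 CPM in crh-1(n3315) and 1.08, 0.700, 0.654 and 1.16 CPM in WT (log2 fold change of 4.70, SE 0.28, edgeR adjusted p = 2.55e-08). The ammonium transporter gene amt-1 had 25.2, 15.5, 8.47 and 10.0 CPM in crh-1(n3315) and 0.686, 0.280, 0.599 and 0.291 CPM in WT (log2 fold change of 5.00, SE 0.40, edgeR adjusted p = 4.42e-07). All 3 had libraries that did not overlap, as their selection required. The noncoding RNA tts-1, known to be abundant in long-lived worms, had 54.2, 38.5, 57.2 and 60.9 CPM in crh-1(n3315) and 1160, 517, 808 and 955 CPM in WT (log2 fold change of -4.03, SE 0.31, edgeR adjusted p = 9.15e-07). lea-1, which encodes a protein linked to tolerance of desiccation, had 411, 456, 329 and 316 CPM in crh-1(n3315) and 1332, 1012, 805 and 1416 CPM in WT (log2 fold change of -1.59, SE 0.18, edgeR adjusted p = 1.22e-05). The galectin gene lec-2 had a log2 fold change of -1.66 (SE 0.36, edgeR adjusted p = 0.00243).

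**Figure D5:**
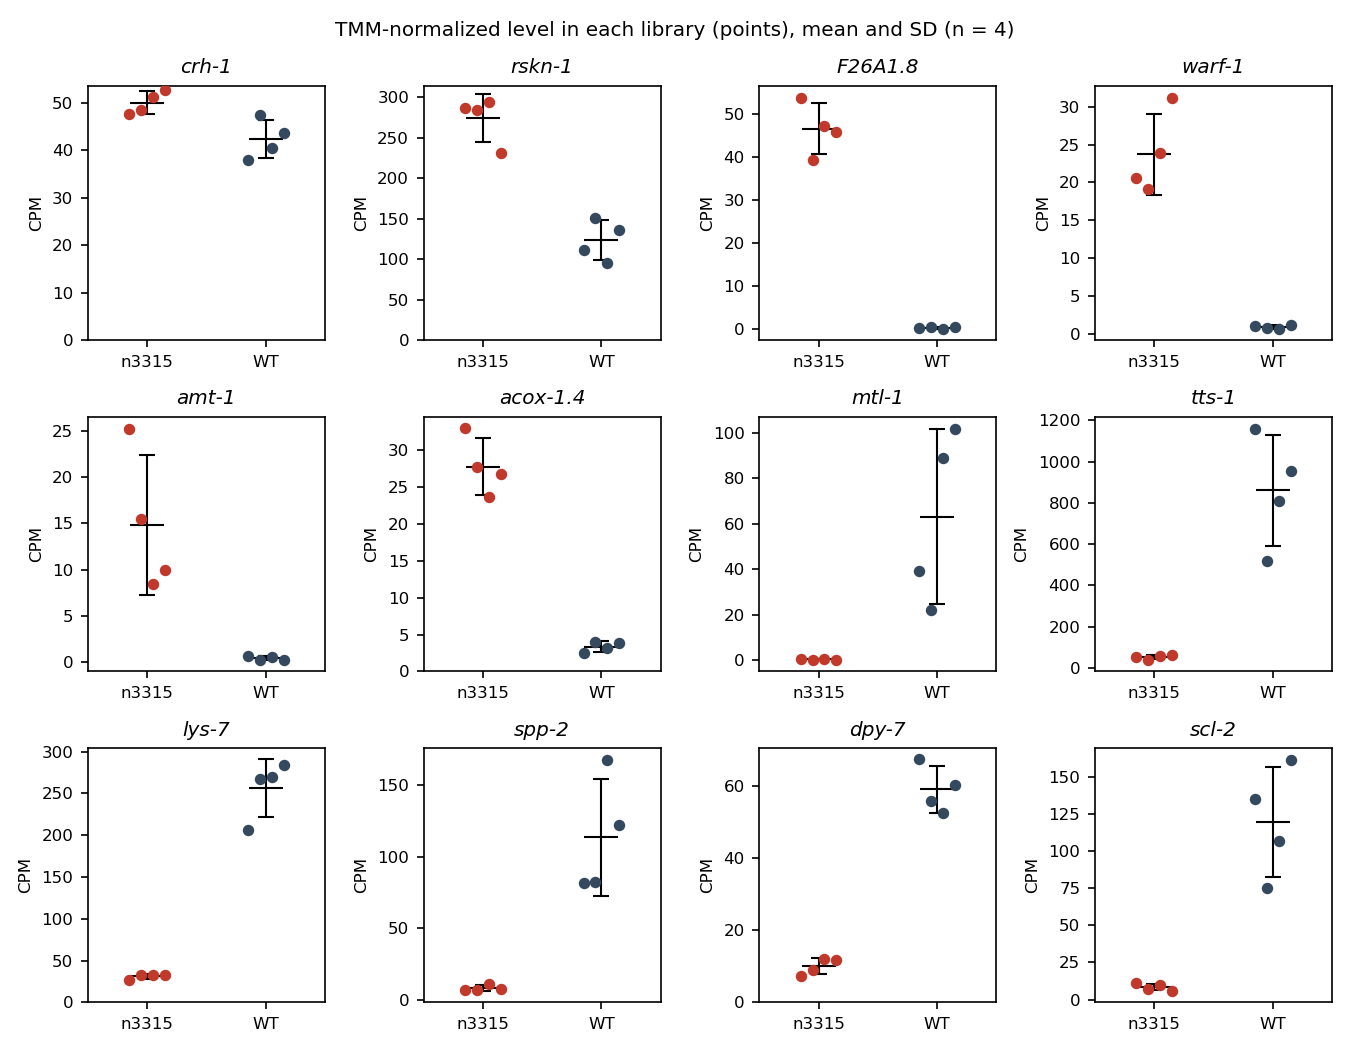
Points give the TMM-normalized CPM of 12 genes in each of the 4 crh-1(n3315) libraries (left) and 4 WT libraries (right), with black bars for the mean and SD (n = 4). The libraries of the genotypes did not overlap in any of the 12 panels, which the selection of most of these genes required. The smallest difference was that of crh-1, at a log2 fold change of 0.24.

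The crh-1(syb385) libraries share the 4 WT libraries with crh-1(n3315), so 9 of the genes above, chosen after their values were seen, were set directly against crh-1(syb385) in the same fit. F26A1.8 differed by 6.75 on the log2 scale (SE 0.43, edgeR adjusted p = 5.49e-07). warf-1 differed by 3.25 on the log2 scale (SE 0.25, edgeR adjusted p = 2.8e-06). lys-7 differed by -2.15 on the log2 scale (SE 0.11, edgeR adjusted p = 2.94e-08) and dpy-7 by -1.80 on the log2 scale (SE 0.15, edgeR adjusted p = 5.39e-06). For mtl-1 the difference was -3.03 on the log2 scale (SE 0.78, edgeR adjusted p = 0.0189), between means of 0.203 and 1.76 CPM. For rskn-1 it was 0.63 on the log2 scale (SE 0.13, edgeR adjusted p = 0.0051). Against WT, crh-1(syb385) also changed in the direction of crh-1(n3315) in most of these genes. Its log2 fold changes were -5.15 for mtl-1, -0.885 for lys-7, -0.75 for dpy-7, 1.45 for warf-1 and 0.52 for rskn-1. For F26A1.8 it was 0.27 (edgeR adjusted p = 0.799). The gene amt-1 had a difference of 0.49 on the log2 scale (SE 0.30, edgeR adjusted p = 0.283), tts-1 one of -0.44 on the log2 scale (SE 0.28, edgeR adjusted p = 0.292) and crh-1 one of 0.16 on the log2 scale (SE 0.10, edgeR adjusted p = 0.259). These 9 do not stand for all changes, and other genes above went both ways. col-119, lea-1 and nlp-39 did not differ (edgeR adjusted p = 0.336, 0.554 and 0.888), and asp-1 and clec-84 did (edgeR adjusted p = 5.39e-06 for each). Mean summed levels in crh-1(n3315), crh-1(syb385) and WT were 77.1, 75.1 and 121 CPM for sensory cilia genes. For lysozyme and saposin-like genes they were 1370, 2370 and 2620 CPM.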

How the data were processed

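The members and gene lists were chosen with earlier results of these data known. Poly(A) RNA of whole worms was sequenced from both ends. The authors demultiplexed reads with bcl2fastq 2.19, aligned them to WBcel235 with STAR 2.7.5a and counted them on exons with featureCounts 1.5.0. They ran DESeq2 1.26.0, whose results were not used. The authors deposited raw counts per gene, without normalization or pooling, with each gene's exonic length. The strand setting and the handling of multi-mapping reads are not given in the sources used here, so overlapping, antisense and near-identical genes are uncertain. All counts came from columns matched to samples by genotype and replicate number.

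Analyses ran in R 4.3.3. edgeR 4.0.16 filtered genes (filterByExpr, minimum count 10, minimum total 15), normalized by TMM and fitted a quasi-likelihood model to the 12 libraries with no term but genotype. P-values were adjusted by Benjamini-Hochberg over 14511 genes. Fold changes used a prior count of 0.125. The fit was tested on simulated data. A fold against a genotype with no count in any library was given as a bound from 3 counts per library, which covers counting error only. A symbol was found for 13956 tested genes.

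Genes were named by rule: every member of the CREB list; the 10 largest rises and falls in fold with a higher mean of at least 1 CPM and the 8 largest in CPM, among called genes with a symbol whose libraries did not overlap; for each list the 2 called members with the largest fold, without overlap and with a higher mean of at least 5 CPM; and for each tissue list its most abundant member. Alternatives were DESeq2 1.42.0, other normalizations and filters, the 8 libraries alone, the replicate number as a block, the 2-fold threshold inside the test, each library left out, and, added after the data were seen, the length trend removed and WT replicates 1 and 3 left out. Genes of the mitochondrial genome were taken by chromosome, since their list matched no symbol. A planned search of promoter motifs was not run, and no sequence was used here. Results on the core genes of the insulin pathway are not reported here.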

Additional observations from a re-analysis of the deposited data

Results flagged for a closer look

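A library stood far from the other 3 of its genotype, by Dixon's test, in 27 of the 354 groups of 4 that were examined, where chance alone flags about 1 in 20. Each is given with the value of that library and the range of the others. crh-1(n3315) replicate 1 stood apart in asp-6 at 703 CPM (others 891 to 926), F48C1.11 at 1.85 CPM (others 1.07 to 1.18), lys-7 at 27 CPM (others 32.3 to 33.2) and plep-1 at 11.7 CPM (others 4.56 to 5.26). The same library stood apart in the pud-2.2 copy WBGene00017500 at 0.0421 CPM (1 count, others 0) and W02D7.11 at 0.0421 CPM (1 count, others 0). A single count against 0 in the other libraries is always flagged by this rule, so such flags carry no information on the library. crh-1(n3315) replicate 2 stood apart in math-45 at 1.12 CPM (others 0.92 to 0.931), ugt-18 at 2.4 CPM (others 2.65 to 2.7) and vit-2 at 26000 CPM (others 20200 to 21100). crh-1(n3315) replicate 3 stood apart in C54C8.12 at 0.0465 CPM (1 count, others 0). crh-1(n3315) replicate 4 stood apart in the pud-2.2 copy WBGene00017490, a separate gene with the same symbol, at 0.0511 CPM (1 count, others 0), rskn-1 at 231 CPM (others 284 to 294), str-176 at 15.8 CPM (others 13.2 to 13.6) and tre-2 at 72.5 CPM (others 80.2 to 81.8). The same library stood apart in ugt-44 at 21.2 CPM (others 12.4 to 13.8), the summed level of the small heat shock proteins list at 1300 CPM (others 1190 to 1200) and the summed level of the proteasome list at 8560 CPM (others 7970 to 8020). WT replicate 1 stood apart in srsx-34 at 8.09 CPM (others 11.8 to 12.3) and the summed level of the chemoreceptor GPCRs list at 302 CPM (others 332 to 338). WT replicate 3 stood apart in gld-1 at 309 CPM (others 579 to 626), hrde-1 at 196 CPM (others 334 to 347), pde-2 at 66.4 CPM (others 100 to 103) and pud-1.2 at 2.45 CPM (others 0.582 to 0.746). The same library stood apart in unc-89 at 37.5 CPM (others 102 to 113), the summed level of the body wall muscle markers list at 5370 CPM (others 7070 to 7410), the summed level of the germ line and meiosis list at 2380 CPM (others 3230 to 3320) and the summed level of the small RNA pathway list at 2410 CPM (others 3550 to 3630).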

How the results depend on the processing

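No gene discussed in the text changed direction under any alternative run. Members of the CREB list that the text leaves out were not followed through these runs. In every run more genes were called lower than higher. Testing against 2-fold itself with glmTreat of edgeR lowered the calls most, to 127 higher and 486 lower in crh-1(n3315), against 598 and 1624. Leaving out each library in turn gave 528 to 655 higher and 1443 to 1689 lower. With DESeq2 there were 660 higher and 1677 lower, and with the length trend removed 650 and 1443, of which 493 and 1350 were among the original calls. Without WT replicates 1 and 3 there were 649 and 1320. With upper-quartile factors 490 rose and 1839 fell. crh-1 passed the test with DESeq2's size factors in edgeR (log2 fold change 0.25, edgeR adjusted p = 0.0471), with DESeq2 (0.249, adjusted p = 0.0292) and without WT replicate 2 (0.30), and its leave-one-out values ran from 0.19 to 0.30. With the replicate number as a block 618 genes rose and 1522 fell. Libraries with the same number did not deviate together (correlations of -0.052, 0.107, -0.079 and -0.033), so the numbers do not pair the samples. With a minimum count of 30, 451 rose and 1465 fell. The cause of each shift was not tested. For genes with no count in a genotype, depth allows only a bound on the fold.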

Other observations

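Gene classes outside the lists are given beside the tested genes as a whole, where 4.12% rose and 11.2% fell, and no difference from these shares was tested. Of 432 pseudogenes 63 rose (14.6%) and 23 fell (5.32%), at a median log2 fold change of 0.25. Reads of a pseudogene and of its parent gene may be split between them. Of 64 genes annotated as ncRNA 11 fell (17.2%) and 3 rose (4.69%), of 28 lincRNA genes 1 fell and 1 rose, and of 23 snoRNA genes 2 fell and 1 rose. Among families by name with at least 10 tested members, 6 of 12 zig genes, which encode immunoglobulin-domain proteins, fell, with 9 of 19 clc genes, which encode claudin-like proteins (5 with the length trend removed), and 6 of 18 tsp genes, which encode tetraspanins. None of these 3 families had a rise, and all were picked after their values were seen.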
